A study of Gallus gallus with 12 samples.

Results

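The genes described here were higher in one segment of the hen oviduct than in the other in every library, at both ages. Their mean level in that segment differed at most 2-fold between the ages. They were chosen by their measured values. The lowest of the 6 libraries of one segment had to reach at least 2 times the highest of the 6 of the other segment plus 1, the mean of the higher segment had to be at least 50 scaled counts, and its mean at 300 days had to lie between 0.5 and 2 times its mean at 120 days. Of the 18241 numbered genes in the series, 19 met the rule. Of these, 11 were higher in the magnum and 8 were higher in the uterus. The difference between segments and the age ratio in the higher segment are therefore properties of the choice. They are given as description, with no test. The age change in the segment where a gene is low was not used by the rule, beyond its limit on the highest library there, and was tested. That test estimated a single spread per gene over the libraries of both segments, including those of the higher segment that the rule used. Its errors and p-values are therefore not independent of the choice.

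The oviduct of the hen is a tube whose segments each add a layer to the egg. The magnum is lined by secretory epithelium with tubular glands that make the proteins of the egg white, while the shell gland (uterus) moves calcium and bicarbonate into the lumen where the shell is laid down. Both segments grow and differentiate under ovarian steroids as a hen comes into lay, and secretory genes are known to change greatly in that period. Other genes, among them regional transcription factors, mark the position of a cell along the duct from early life. The identifiers of the deposited tables are not paired with gene names, and 0 of 19820 matched the reference table of chicken genes used here. No name, function, position or sequence is therefore given for any member, and the segment labels could not be checked against marker genes of egg white, shell gland, muscle, ciliated or immune cells.

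The libraries came from magnum and uterus of Lohmann layers, a commercial egg-laying chicken, at 300 days and at 120 days of age, with 3 libraries in each of the 4 groups. The series title speaks of prelaying and laying hens. The labels name no allele, agent or treatment and leave out whether each library is a different bird, so p-values cover the spread between libraries alone, which may be technical. Samples were bulk tissue, in which fewer cells of a type and less RNA per cell cannot be told apart.

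Levels are scaled counts, that is read counts that had been scaled to a common level between libraries before deposit. The number of scaled counts that 1 read is worth was estimated from the spacing of low values, at 1.95 to 2.37 in the magnum at 300 days, 0.774 to 1.17 in the magnum at 120 days, 0.756 to 0.875 in the uterus at 300 days and 0.622 to 0.679 in the uterus at 120 days. These steps correspond to an estimated 18600000 to 32600000 reads assigned to genes per library. Where a step is below 1, a listed 0 can hold 1 read. Replicate 1 of the magnum at 120 days stood apart from replicates 2 and 3 of its group, and its values are given beside each result they touch.

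Few genes had a gap of at least 2-fold between the lowest library of one segment and the highest of the other plus 1. Genes whose libraries were separated by a smaller gap are not counted here. Of the 11752 numbered genes with a magnum mean of at least 50, 28 met the segment criterion toward the magnum, and of the 11940 with a uterus mean of at least 50, 22 met it toward the uterus. On the magnum side 11 of the 28 lay inside the age band, 13 had a 300-day mean more than 2 times the 120-day mean and 4 had less than 0.5 times. On the uterus side 8 of the 22 lay inside, 10 above and 4 below. For comparison, 75.3% of the 12191 genes with a magnum mean of at least 50 that passed the filter on low values, and 81.0% of the 12421 such genes in the uterus, had an age ratio inside the band. Both of these sets include loci listed as new genes, which the rule leaves out.

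**Figure D1:**
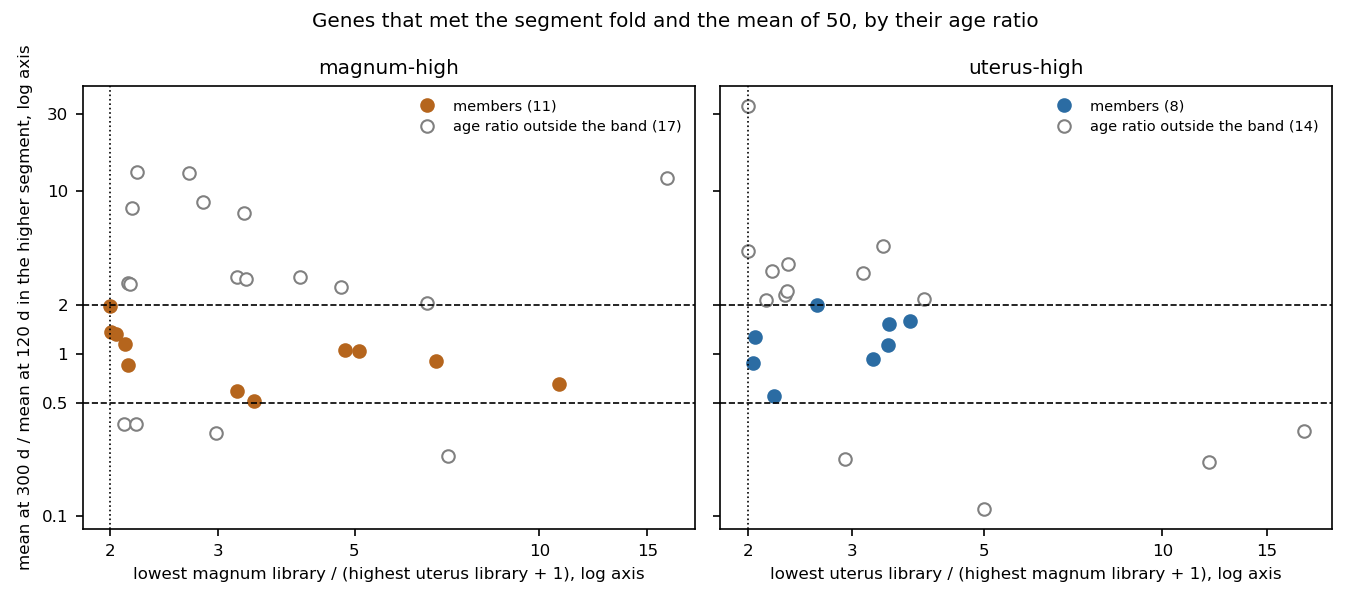
Each point is a gene that met the segment fold and the mean of 50, magnum-high genes on the left and uterus-high genes on the right. The x axis is the lowest library of the higher segment over the highest library of the other plus 1, the y axis is the 300-day mean over the 120-day mean in the higher segment, both on log axes, and dashed lines mark ratios of 0.5 and 2. The 11 and 8 members are filled, and the 17 and 14 genes outside the age band are open.

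Several members lay at the edge of the rule. The lowest magnum library of gene5699, at 56 scaled counts, was exactly 2 times its highest uterus library of 27 plus 1, and its age ratio of 1.96 was the highest on the magnum side. The nearest gene outside the fold was gene1976, at 1.95, and the nearest outside the upper age limit was gene11750, at 2.06. On the uterus side gene9357 had an age ratio of exactly 2, with gene21354 just outside at 2.13. The segment fold of gene3884 was 2.04, with gene15125 just outside at 1.99. Lowest in age ratio were gene8496, at 0.512 in the magnum, and gene6767, at 0.545 in the uterus, which were also the lowest members by mean, at 63.0 and 51.0 scaled counts. The nearest genes below the lower age limit were gene6112, at 0.371 in the magnum, and gene11755, at 0.334 in the uterus. The nearest below the mean of 50 were gene307, at 40.8 in the magnum, and gene22295, at 36.5 in the uterus.

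Among the magnum-high members, 7 of 11 had a magnum mean of at least 1000 scaled counts. The most abundant was gene4684, which stood at 6776, 7531 and 6214 scaled counts in the 300-day magnum and at 11697, 3345 and 4538 at 120 days. Its uterus libraries held 123, 120 and 58 at 300 days and 210, 692 and 652 at 120 days. The 300-day magnum libraries lay close together, while at 120 days replicate 1 was above and the other two below all 3 of them. Per length it was also the highest magnum-high member, with a mean of 66.2 ± 29.2 FPKM in the magnum (SD, n = 6).

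The steadiest magnum-high gene was gene8506, with 2851, 1447 and 2336 scaled counts in the 300-day magnum and 2680, 2410 and 2254 at 120 days. Its uterus libraries held 212, 189 and 84 at 300 days and 133, 164 and 83 at 120 days. All 6 magnum libraries lay within 1.97-fold of each other, and the ages overlapped in both segments. The lowest magnum library was 6.79 times the highest uterus library plus 1.

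The smallest segment ratio belonged to gene22971, with 6390, 3429 and 3646 scaled counts in the 300-day magnum and 3716, 3129 and 3392 at 120 days. In the uterus it held 1294, 1225 and 1532 at 300 days and 1008, 1174 and 1231 at 120 days. Its magnum mean was 3.18 times its uterus mean. It differed from the other abundant members in being well expressed in both segments, at 22.6 ± 7.87 FPKM in the magnum and 6.77 ± 0.852 FPKM in the uterus (SD, n = 6 each).

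For gene8706 the magnum libraries held 1473, 2922 and 1731 scaled counts at 300 days and 3300, 1874 and 2054 at 120 days. The uterus libraries held 143, 179 and 185 at 300 days and 200, 478 and 689 at 120 days. The ages overlapped in the magnum, whereas in the uterus all 3 libraries of 300 days lay below all 3 of 120 days.

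In the magnum gene19010 stood at 1446, 956 and 1249 scaled counts at 300 days and at 2212, 1594 and 2386 at 120 days. In the uterus it held 166, 271 and 143 at 300 days and 85, 175 and 296 at 120 days. Although its age ratio of 0.590 lay inside the band, its 3 magnum libraries of 300 days were all below those of 120 days, which was also so for gene8496. These 2 of 11 members, with 0 wholly above, stand beside 20.5% of all tested genes whose magnum libraries of 300 days lay wholly below and 18.7% wholly above, a comparison that the choice of members limits.

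A pair of abundant magnum-high genes kept a mean within 2-fold between ages only in the arithmetic sense. The magnum values of gene9322 were 1575, 4177 and 3143 scaled counts at 300 days and 5751, 253 and 520 at 120 days, and its uterus values were 22, 50 and 36 at 300 days and 33, 12 and 125 at 120 days. Those of gene5699 were 115, 4771 and 2112 in the magnum at 300 days and 3427, 56 and 85 at 120 days, and 9, 24 and 22 in the uterus at 300 days and 27, 0 and 22 at 120 days. The highest magnum library exceeded the lowest 22.7-fold for gene9322 and 85.2-fold for gene5699. In both genes replicate 1 at 120 days and replicates 2 and 3 at 300 days were the 3 highest magnum libraries, and replicates 2 and 3 at 120 days the lowest. On the log2 scale the 300-day minus 120-day difference in the magnum was 1.59 ± 1.04 for gene9322 and 2.04 ± 1.75 for gene5699 (SE), with wide errors. Without replicate 1 at 120 days neither gene met the rule, and gene5699 also failed it without replicate 1 or 3 at 300 days. Less abundant members also differed by more than 2-fold between ages on the log2 scale in their higher segment. These were gene8496, at -1.04 ± 0.54 in the magnum, and gene9357, at 1.07 ± 0.85 in the uterus (SE).

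The other 4 magnum-high members had magnum means of 63.0 to 252.5 scaled counts. The clearest of them was gene15059, with 280, 97 and 222 in the magnum at 300 days and 502, 154 and 260 at 120 days. It was listed at 0 in the 3 uterus libraries of 300 days and at 0, 1 and 8 in those of 120 days. Its lowest magnum library was 10.8 times its highest uterus library plus 1, the largest such fold among the 19 members.

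In the magnum gene22311 held 95, 249 and 316 scaled counts at 300 days and 290, 114 and 169 at 120 days. In the uterus it held 7, 12 and 9 at 300 days and 25, 44 and 23 at 120 days. For gene22941 the magnum values were 213, 61 and 160 at 300 days and 141, 140 and 136 at 120 days, and the uterus values were 6, 5 and 4 at 300 days and 9, 11 and 8 at 120 days. In both genes the uterus libraries of 300 days lay wholly below those of 120 days and the magnum libraries overlapped. The lowest member, gene8496, held 24, 40 and 64 in the magnum at 300 days and 81, 70 and 99 at 120 days, against 0, 1 and 1 in the uterus at 300 days and 3, 6 and 3 at 120 days, where a scaled count of 1 stands for about 2 reads.

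**Figure D2:**
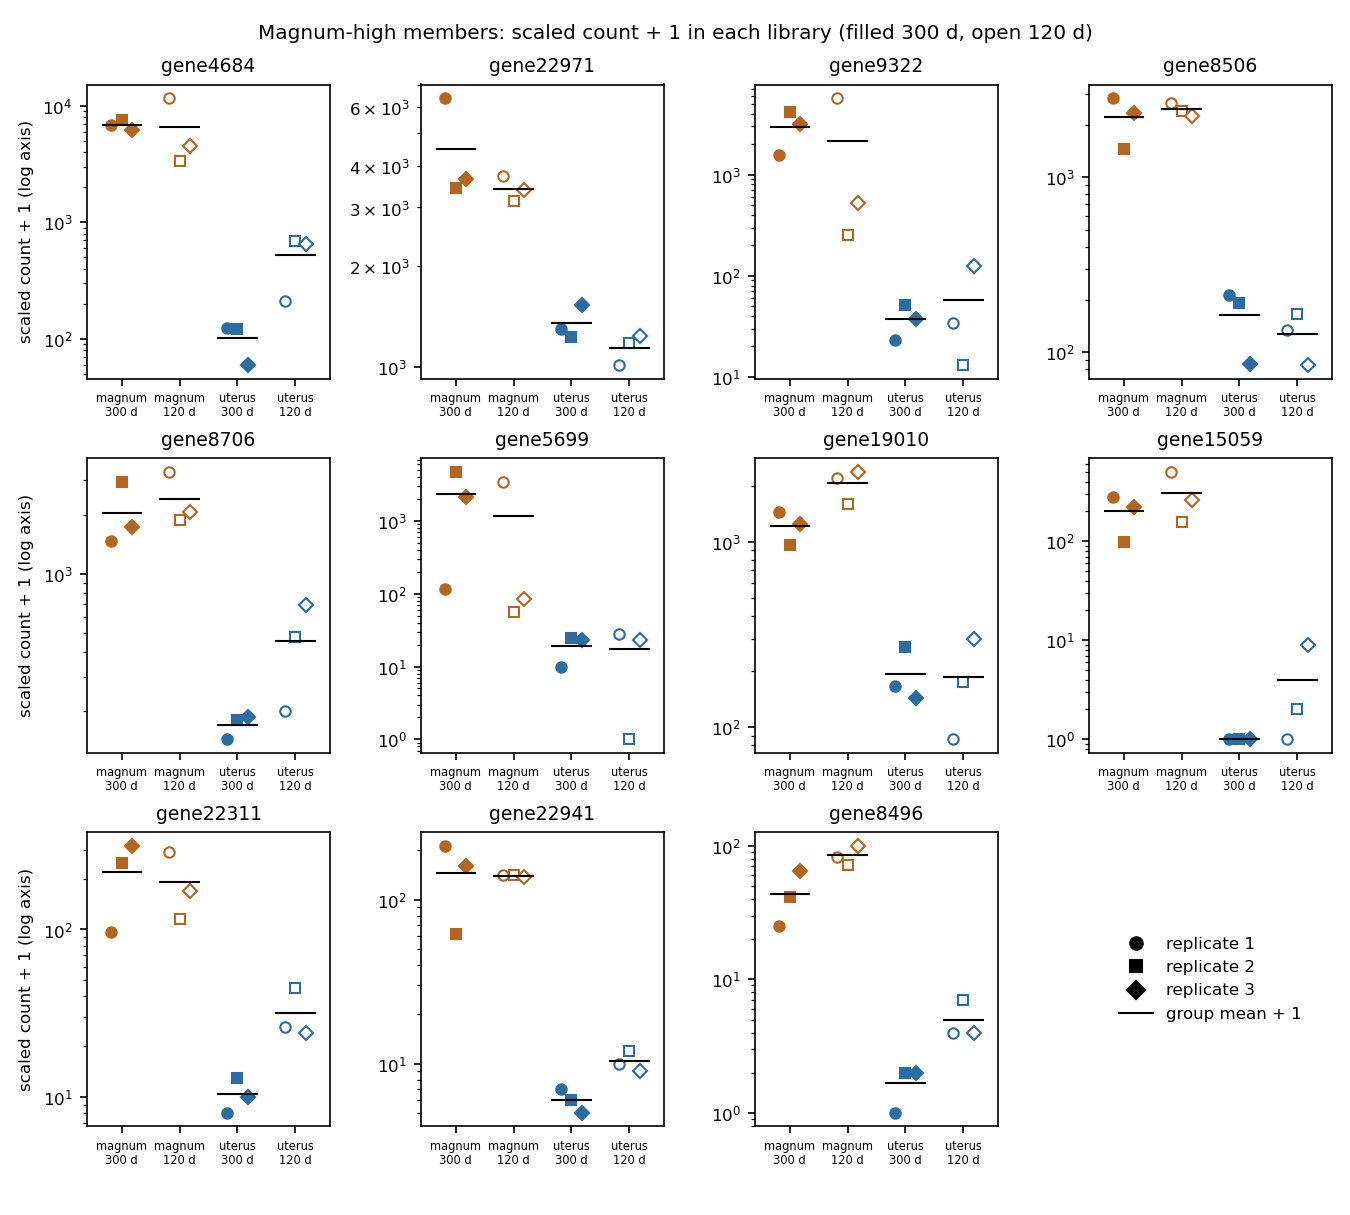
Each panel is 1 of the 11 magnum-high members, ordered by magnum mean, with the scaled count plus 1 of every library on a log axis whose range differs between panels. Marker shapes give the replicate, filled markers are 300 days, open markers 120 days, and lines are group means plus 1. In gene9322 and gene5699 the open circle of magnum replicate 1, at 5751 and 3427, stands far above the other libraries of 120 days.

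Replicate 1 of the magnum at 120 days was the highest of its group for 9 of the 11 magnum-high members, where it was the highest of its group for 36.7% of all tested genes. Replicate 2 was the lowest for 9 of the 11, against 36.5% of all tested genes. The rule used these magnum values, so the choice of members limits both comparisons. The summed level of the 11 genes was 21238, 25680 and 21193 scaled counts in the 300-day magnum and 33797, 13139 and 15893 in the 120-day magnum. In the uterus the sums were 1982, 2076 and 2074 at 300 days and 1733, 2757 and 3140 at 120 days. Without replicate 1 of the magnum at 120 days 10 genes met the magnum-high rule, of which 9 were members, the missing ones being gene9322 and gene5699.

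The uterus-high members were lower in level, and 1 of the 8 had a uterus mean of at least 1000 scaled counts. This was gene3884, with 1250, 1392 and 1186 in the uterus at 300 days and 1379, 1834 and 1181 at 120 days, the narrowest range of the 19 members at 1.55-fold. Its magnum libraries held 15, 26 and 21 at 300 days and 43, 578 and 360 at 120 days. The uterus libraries of the 2 ages overlapped. In the magnum the 300-day libraries were all below those of 120 days, among which replicate 1 was far below replicates 2 and 3.

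For gene7797 the uterus held 1403, 955 and 516 scaled counts at 300 days and 813, 635 and 446 at 120 days. The magnum held 38, 21 and 19 at 300 days and 31, 128 and 109 at 120 days. Its ages overlapped in both segments, in the magnum only through replicate 1 at 120 days, which lay among the 300-day libraries.

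The uterus libraries of gene1452 held 702, 1232 and 586 scaled counts at 300 days and 1265, 234 and 733 at 120 days. Its magnum libraries held 2, 4 and 0 at 300 days and 9, 67 and 53 at 120 days. The 300-day magnum values correspond to 1, 2 and 0 reads, so the size of its segment difference at that age cannot be read closely. Per length it was the highest uterus-high member, at 35.7 ± 18.0 FPKM in the uterus (SD, n = 6). That level was 3.14 times what its scaled count and listed length gave with the usual divisor of a library (median of the 6 uterus libraries), whereas the other 18 members stood at 0.744 to 1.34 times. Among the 9188 genes with at least 100 scaled counts in all libraries, 17.2% had a ratio above 1.5 (median over the 12 libraries).

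In the uterus gene10666 stood at 572, 506 and 693 scaled counts at 300 days and at 635, 199 and 284 at 120 days. In the magnum it held 43, 33 and 52 at 300 days and 25, 38 and 27 at 120 days. The ages overlapped in both segments, and its uterus mean was 13.3 times its magnum mean.

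The remaining 4 uterus-high members had uterus means of 51.0 to 303.0 scaled counts. In the uterus gene9357 held 695, 156 and 361 at 300 days and 55, 279 and 272 at 120 days, a 12.6-fold range, against 20, 4 and 3 in the magnum at 300 days and 1, 6 and 3 at 120 days. The uterus values of gene22257 were 172, 198 and 93 at 300 days and 272, 35 and 58 at 120 days, and its magnum values were 2, 14 and 15 at 300 days and 8, 16 and 13 at 120 days. Both genes had widely spread uterus libraries at 120 days, in which replicate 1 was the lowest for gene9357 and the highest for gene22257.

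The other two of these had a narrower range over the 6 uterus libraries, at 2.36-fold for gene20700 and 3.87-fold for gene6767. In the uterus gene20700 held 86, 87 and 39 scaled counts at 300 days and 80, 92 and 58 at 120 days, against 4, 11 and 3 in the magnum at 300 days and 1, 11 and 8 at 120 days. Values of gene6767 in the uterus were 37, 36 and 35 at 300 days and 31, 47 and 120 at 120 days, and in the magnum 9, 2 and 0 at 300 days and 8, 10 and 13 at 120 days. Ages overlapped in both segments for both genes.

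**Figure D3:**
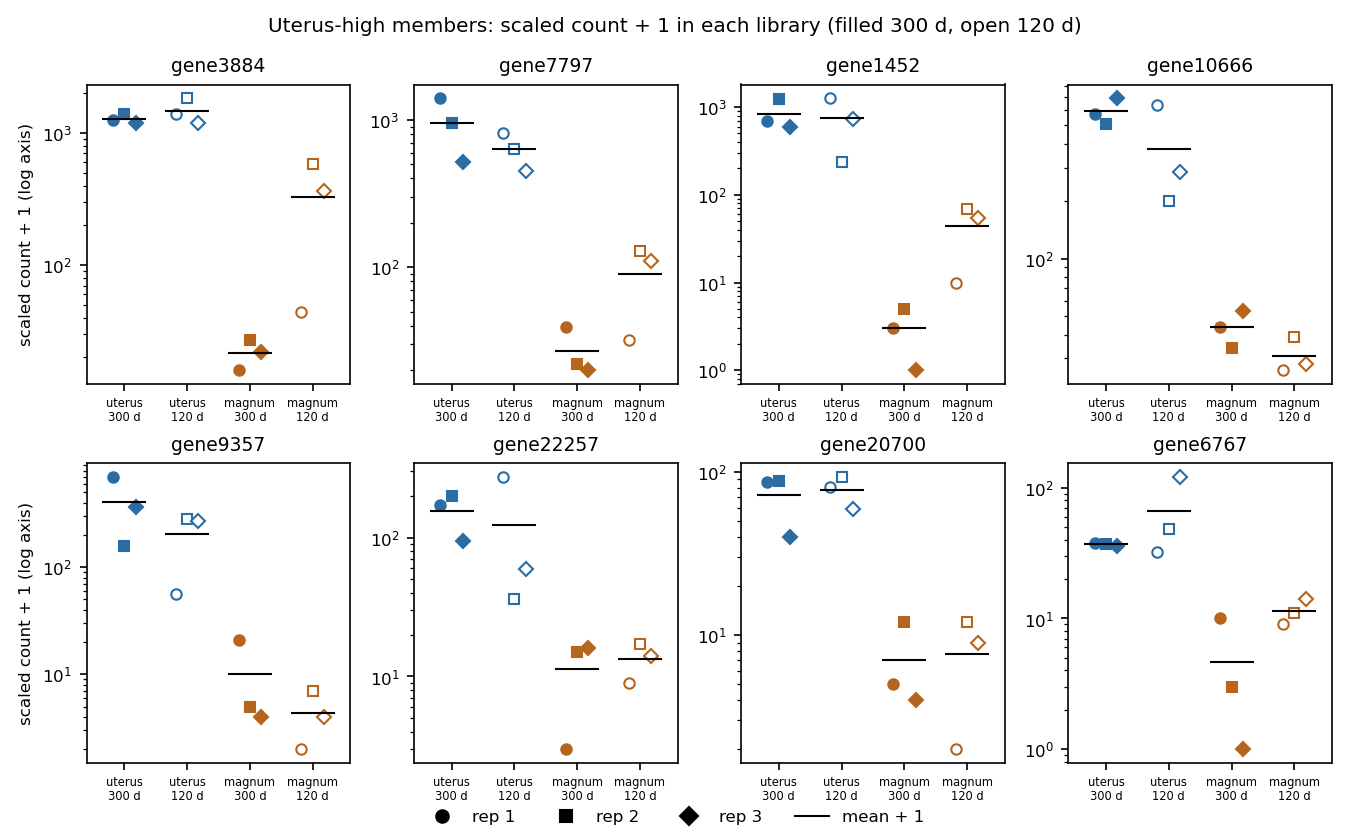
Each panel is 1 of the 8 uterus-high members, ordered by uterus mean, with the scaled count plus 1 of every library on a log axis whose range differs between panels. Marker shapes give the replicate, filled markers are 300 days, open markers 120 days, and lines are group means plus 1. In the magnum at 120 days the open circle of replicate 1 is the lowest of its group in all 8 panels, such as 43 beside 578 and 360 for gene3884.

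The number of uterus-high genes depended on replicate 2 of the uterus at 120 days. Without it 46 genes met the uterus-high rule, 40 of them new, and in those 40 this library stood at a median of 0.210 times the mean of the other two libraries of its group. Those 40 met the rule only without this library, so its low values there follow largely from how they were picked. Among the 8 members replicate 2 of the uterus at 120 days was the lowest of its group for 3, namely gene1452, gene10666 and gene22257. Without replicate 3 of the uterus at 120 days the number was 14, and without replicate 2 or 3 of the magnum at 120 days it was 17 and 16. The magnum side was 18 without replicate 2 of the magnum at 120 days and 17 without replicate 3 of the uterus at 120 days. Under the loss of any 1 library, 8 of the 11 magnum-high and 4 of the 8 uterus-high genes always met the rule. The others were gene5699, gene9322 and gene8496 on the magnum side and gene9357, gene6767, gene10666 and gene22257 on the uterus side.

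The members, although called stable by their age means, varied between the libraries of their own segment. The coefficient of variation over the 6 libraries of the higher segment had a median of 43.3% on the magnum side, with a range of 20.9% to 115%, and of 47.1% on the uterus side, with a range of 17.9% to 72.6%. Over all tested genes with a mean of at least 50, loci listed as new genes included, the median was 31.8% in the magnum and 27.0% in the uterus. The rule used the same libraries of the higher segment, and these genes were not matched to the members in level. The choice of members therefore limits this comparison. All 6 libraries of the higher segment lay within 2-fold for 2 of the 19 members, gene8506 and gene3884, within 4-fold for 12, and spread over more than 10-fold for 3. In the uterus 0 of the 8 uterus-high members had libraries of the 2 ages that did not overlap, beside 18.9% of all tested genes wholly below and 20.4% wholly above at 300 days, a count that the age band of the rule limits.

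In the FPKM table the lowest library of the higher segment was above the highest of the lower segment for all 19 members. The FPKM values are of the same libraries, so the rule on scaled counts largely fixes this outcome, and it is no separate support. With a pseudocount of 0.1 FPKM the fold between them reached 2 for 7 of the 11 magnum-high and 3 of the 8 uterus-high members. Mean levels per length in the higher segment ran from 0.188 FPKM for gene6767 to 66.2 FPKM for gene4684. The listed gene lengths of the magnum-high members ran from 1937 to 10110 bases with a median of 5231, beside a median of 3801 for all tested genes with a magnum mean of at least 50. Those of the uterus-high members ran from 1258 to 14967 with a median of 3872, beside 3791. Both comparison medians include loci listed as new genes, which the rule leaves out.

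The age change of the magnum-high members was then measured in the uterus, where they were low. Of the 11, 1 was lower at 300 days than at 120 days and 0 were higher, by a limma fit of the log2(scaled count + 1) values, adjusted after Benjamini and Hochberg over all 14883 genes tested. Over all genes tested 7.21% were lower and 6.54% higher in this comparison, so the share of 1 in 11 is near the background. At an unadjusted p below 0.05 the numbers were 4 lower and 0 higher, beside 15.3% lower and 15.1% higher over all genes tested. The median log2 change of the 11 was -0.79, beside 0.02 over all genes tested. It was -0.45 over the 10 without gene15059, which was listed at 0 in the 300-day uterus and whose fitted value depends on the pseudocount. All 11 passed the filter on low values through their magnum libraries, and 8 also reached it in the uterus alone. The others were gene15059, gene22941 and gene8496. The median of -0.79 is the value of gene22941, and gene8496 is among the 4 lower at an unadjusted p below 0.05. The choice of members therefore limits the comparison of these counts and of the median with all genes.

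The gene that passed was gene4684, which fell to 100.3 ± 36.7 scaled counts in the uterus at 300 days, against 518 ± 267 at 120 days (SD, n = 3 each), with a change of -2.25 ± 0.52 on the log2 scale (SE, adjusted p = 0.0161). All 3 libraries of 300 days lay below the lowest of 120 days, and over the same ages its magnum mean was 6840.3 ± 661 at 300 days and 6527 ± 4517 at 120 days. The segment ratio of means was thus 68.2 at 300 days and 12.6 at 120 days. Replicate 1 of the magnum at 120 days held 11697 scaled counts, beside 3345 and 4538 in replicates 2 and 3. The 120-day magnum mean and segment ratio therefore lean on that library. The call was lost when replicate 3 of the uterus at 300 days, or replicate 2 or 3 of the uterus at 120 days, was left out, with adjusted p of 0.0664, 0.0641 and 0.0641, and log2 changes of -1.90, -1.95 and -1.99. Over all alternatives its adjusted p ran from 0.000302 to 0.0691.

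Negative changes that did not pass were measured for other magnum-high genes. For gene8706 the uterus held 169 ± 22.7 scaled counts at 300 days and 456 ± 245 at 120 days, with a change of -1.26 ± 0.41 on the log2 scale (SE, adjusted p = 0.0625), which was -1.77 with an adjusted p of 0.00528 without uterus replicate 1 at 120 days (range over its alternatives 0.00267 to 0.189). The changes were -1.58 ± 0.52 for gene22311 (adjusted p = 0.0626) and -1.60 ± 0.54 for gene8496 (adjusted p = 0.0677), of which gene8496 rests on few reads in the uterus. Together with gene4684 and gene22941, these are the 5 of 11 members whose uterus libraries of 300 days lay wholly below those of 120 days, while 0 of 11 lay wholly above. Over all tested genes these shares were 18.9% and 20.4%. Of the 5, gene8496 and gene22941 passed the filter on low values only through the magnum, where they are high, which limits this comparison.

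The other members gave uterus values at 300 days within the range of those at 120 days or overlapping it. The log2 changes were 0.25 ± 0.22 for gene22971, 0.30 ± 0.37 for gene8506 and 0.18 ± 0.40 for gene19010, with adjusted p of 0.493, 0.637 and 0.802. Larger errors went with gene9322, at -0.12 ± 1.04, and gene5699, at 1.05 ± 1.75. The fit estimated a single spread per gene over the groups of both segments. These errors therefore also hold the spread between magnum libraries, and they equal those of the same genes in the magnum. A fitted change for gene15059, listed at 0 in all 3 uterus libraries of 300 days, would depend on the pseudocount and is not given as a fold.

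**Figure D4:**
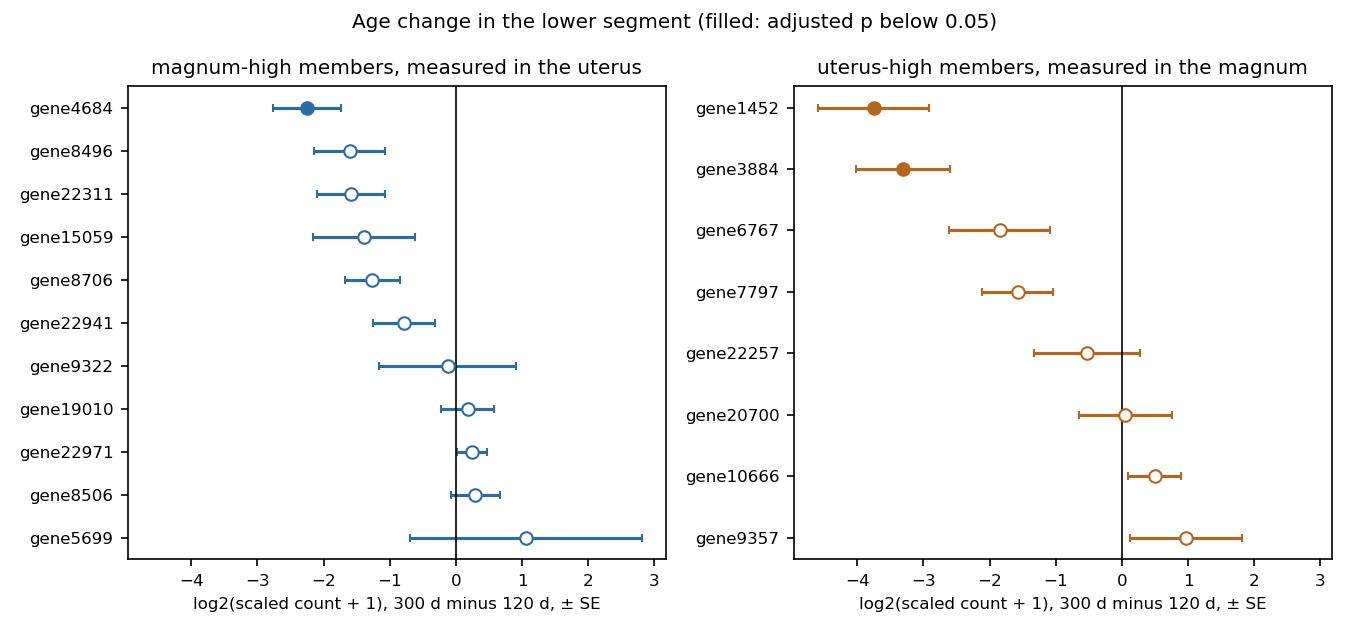
Points are the 300-day minus 120-day difference of each member on the log2(scaled count + 1) scale in the segment where it is low, with bars of 1 SE. The SE comes from a single spread per gene over the groups of both segments, so it also reflects the segment where the gene is high. Magnum-high members are measured in the uterus on the left and uterus-high members in the magnum on the right, and filled points have an adjusted p below 0.05. The points of gene15059 and gene1452 depend on the pseudocount. That of gene1452 rests on few reads in the 300-day magnum, and this gene passed the filter on low values only through the uterus. The filled points are gene4684 at -2.25 on the left, and gene1452 at -3.75 and gene3884 at -3.31 on the right.

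The uterus-high members were measured in the magnum in the same way. Of the 8, 2 were lower at 300 days than at 120 days and 0 were higher, beside 13.6% lower and 12.1% higher over all genes tested (limma, Benjamini-Hochberg adjustment). At an unadjusted p below 0.05 the numbers were 4 lower and 0 higher, beside 20.7% lower and 18.7% higher over all genes tested. The median log2 change of the 8 was -1.05, beside -0.03 over all genes. For 2 of the 8 the magnum libraries of 300 days lay wholly below those of 120 days and for 0 wholly above, beside 20.5% and 18.7% of all genes tested. The filter on low values was reached by 4 of the 8 in the magnum alone. The other members, gene1452, gene20700, gene6767 and gene9357, passed it only through the uterus, where they are high. The 4 lower at an unadjusted p below 0.05 include gene1452 and gene6767. The choice of members therefore limits the comparison of these counts and of the median with all genes. Without magnum replicate 1 at 300 days the calls were 4 lower for the uterus-high members in the magnum and 2 lower for the magnum-high members in the uterus. Over all 14883 genes tested, 1727 were then lower in the magnum and 1069 lower in the uterus. The calls in the magnum then include gene6767, which passed the filter only through the uterus.

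In the magnum gene3884 fell to 20.7 ± 5.51 scaled counts at 300 days, against 327 ± 269 at 120 days (SD, n = 3 each), with a change of -3.31 ± 0.71 on the log2 scale (SE, adjusted p = 0.00707). Its uterus mean was 1276 ± 105 at 300 days and 1465 ± 335 at 120 days, and the segment ratio of means was thus 61.7 at 300 days and 4.48 at 120 days. Replicate 1 of the magnum at 120 days held 43 scaled counts, close to the 300-day values. Without that library the difference was -4.43, and when only the magnum libraries were fitted the adjusted p was 0.0537, where its alternatives ran from 8.36e-06 to 0.0537.

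The other fall was that of gene1452, with 2.0 ± 2.0 scaled counts in the 300-day magnum and 43.0 ± 30.3 at 120 days (SD, n = 3 each), with a change of -3.75 ± 0.84 on the log2 scale (SE, adjusted p = 0.00842). It rests on 3 reads in all at 300 days, and its size depends on the pseudocount. This gene passed the filter on low values only through its uterus libraries, and with the filter applied in the magnum alone it was not tested and 1 uterus-high member was called. In the FPKM table, at a pseudocount of 1, it was -1.09, with an adjusted p of 0.169, where its alternatives ran from 0.000207 to 0.169.

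Next in size among those with more than a few reads was gene7797, at 26.0 ± 10.4 scaled counts in the 300-day magnum and 89.3 ± 51.4 at 120 days, with a change of -1.58 ± 0.54 on the log2 scale (SE, adjusted p = 0.0508). Without magnum replicate 1 at 120 days it was -2.21, with an adjusted p of 0.00442, where its alternatives ran from 0.000521 to 0.177. The change of gene6767 was -1.84 ± 0.76 (adjusted p = 0.0955) on values of 0 to 13 scaled counts. For gene10666, at 0.49 ± 0.40, gene9357, at 0.97 ± 0.85, gene22257, at -0.52 ± 0.80, and gene20700, at 0.05 ± 0.70, adjusted p lay between 0.387 and 0.966.

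Replicate 1 of the magnum at 120 days was the lowest library of its group for 8 of the 8 uterus-high members, against 39.5% of all tested genes. The rule's limit on the magnum values of these genes bears on this comparison. The summed level of the 8 genes was 133, 115 and 113 scaled counts in the 300-day magnum and 126, 854 and 586 in the 120-day magnum, so replicate 1 at 120 days lay at the level of the 300-day magnum. In the uterus their sums were 4917, 4562 and 3509 at 300 days and 4530, 3355 and 3152 at 120 days. Without the replicate 1 libraries of both segments at 120 days, the magnum-high members had 2 calls lower in the uterus and the uterus-high members 3 lower in the magnum, an alternative in which gene8706 and gene7797 also passed. Over all 14883 genes tested, this alternative called 1624 lower in the uterus and 2399 lower in the magnum. As reported these numbers were 1073 and 2023, so the calls rose over all genes too.

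The genes that met the segment criterion outside the age band gave 1 of 17 lower and 0 higher in the uterus on the magnum-high side, and 1 of 14 lower and 0 higher in the magnum on the uterus-high side. Over all genes tested 7.21% were lower and 6.54% higher in the uterus, and 13.6% lower and 12.1% higher in the magnum. The gene called in the uterus, gene7740, passed the filter on low values only through the magnum. The median log2 changes of these genes in the lower segment were -0.25 and -0.95, beside -0.79 and -1.05 for the members. On the uterus-high side gene11756 and gene3874 were listed at 0 in all 6 magnum libraries, so their change is 0 by construction. Others there, among them gene1431, gene11755 and gene422, passed the filter only through the uterus. The choice of genes therefore limits the comparison of these counts and medians with the members and with all genes. Whether the members differ in these changes from the genes outside the band was not tested.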

How the data were processed

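Messenger RNA libraries of magnum and uterus at 2 ages were analysed from tables that the authors deposited for the whole series. Per the submitters' processing notes, the tools were Cufflinks 2.0.2, TopHat2 2.0.8, Trimmomatic 0.32, FastQC 0.11.6 and GATK 3.8, with no role named. Build, annotation, strand and the treatment of shared reads are not given in the sources used. The deposited gene table was read as scores, called scaled counts: whole numbers whose size factors are near 1 although totals differ. The deposited FPKM values served as an alternative, and gene length was taken from the deposited table.

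The members and lists were chosen with earlier results of these data known. Members were found by the stated rule. All 12 libraries entered 1 limma fit (limma 3.58.1, R 4.3.3; mean-dependent prior) on log2(scaled count + 1), over 14883 genes with at least 10 in at least 3 libraries, with adjusted p below 0.05 as the threshold. The fit estimated a single spread per gene over the 4 groups. Errors and p-values in one segment therefore also depend on the libraries of the other. The genes tested include loci listed as new genes, which the rule leaves out. Fold changes on this scale understate those of low genes. The fit was tested on simulated data of 14883 genes, where for the uterus age comparison 71.8% of 4-fold and 33.3% of 2-fold changes were recovered, and for that of the magnum 73.9% and 20.3%. False calls made up 3.03% and 6.3% of the calls. The changes were put only into genes above a set mean over all 12 libraries, with normal errors of equal spread in the 4 groups. These rates therefore do not cover members with low values in the segment tested. The scaled value of 1 read was estimated per library as the step whose truncated multiples best gave the number of genes at each low value, and such depths cover counting only. All 19 members are named, with the genes nearest each threshold. The planned list of 54 marker genes had 0 entries matched. Other tools were Python 3.11.15, NumPy 2.4.6, pandas 2.3.3 and matplotlib 3.10.9.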

Additional observations from a re-analysis of the deposited data

How the results depend on the processing

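Membership depended on the thresholds. The magnum-high and uterus-high numbers, 11 and 8 as reported, were 23 and 24 at a segment fold of 1.5, 6 and 4 at a fold of 3, 7 and 4 with an age band of 0.67 to 1.5, and 28 and 22 with no band. The FPKM table gave 4 on the uterus side, and division by library totals gave 7 on the magnum side, of which 1 was a member as reported. Leaving out each library gave 10 to 18 magnum-high and 7 to 46 uterus-high genes. The calls lower with age in the other segment, 1 and 2 as reported, were 2 and 6 after division by totals. Over all 14883 genes tested, division by totals called 728 lower in the uterus and 12374 lower in the magnum. That division puts the median log2 change of all genes at -1.79 in the magnum and -0.14 in the uterus. As reported these medians were -0.03 and 0.02, so that most such magnum calls share the shift. The magnum-high count was 2 with upper quartile rescaling, with no trend in the prior, and without the replicate 1 libraries of 120 days, and 0 with FPKM at a pseudocount of 1. Beside these, 1198, 1013, 1624 and 1172 of all 14883 genes were lower in the uterus, in that order. The uterus-high count was 1 with the filter applied in the magnum alone, with FPKM at a pseudocount of 1, and with the 2 groups compared. All genes lower in the magnum then numbered 1914 of 14065, 1743 of 14883 and 1361 of 14883, in that order. Leaving out each library gave 0 to 2 and 2 to 4. Over all 14883 genes it gave 532 to 1387 lower in the uterus and 996 to 2329 lower in the magnum. Calls in the other direction numbered 0 in every alternative run for both sides.

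Same-numbered libraries of the 2 ages of a segment correlated at -0.172 to -0.0122 in their deviations, so the numbers do not pair the age groups. Between the segments of one age, same-numbered libraries correlated at 0.0838 to 0.216 at 300 days and at 0.361 to 0.591 at 120 days. The calls lower were again 1 and 2 in both fits with a replicate block, one across the ages and one within each age. Over 468 alternatives for single members, 428 kept direction and call, 16 gained and 6 lost a call, and 18 reversed. Leaving out a library of the higher segment cannot change the difference in the lower segment, so direction was fixed in those alternatives. Most members had no call to lose. The 428 is therefore not a measure of how steady the changes are. All reversals were of changes that had not passed. After division by totals they were -1.23 for gene10666, -1.42 for gene20700 and -0.45 for gene9357, and gene10666 then passed (adjusted p = 0.0425). With FPKM, gene5699 gave -0.010 and gene20700 -0.00027 at a pseudocount of 1, where they were 0.060 and 0.015 at 0.1, and gene9322 gave 0.13 at 0.1, where it was -0.0078 at 1. For gene20700 a pseudocount of 10 gave -0.041, and upper quartile rescaling -0.038. Without the replicate 1 libraries of 120 days gene19010 gave -0.29 and gene20700 -0.74. Leaving out each library, the changes ran from -0.29 to 0.60 for gene19010, -0.50 to 1.90 for gene5699, -0.90 to 0.74 for gene9322, -0.74 to 0.55 for gene20700 and -0.94 to 0.27 for gene22257. The cause of these moves was not tested. Depth limits the values below about 10 scaled counts.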
